A study of Mus musculus with 24 samples.

Results

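The genes described here carry vitamin A into cells, turn it into retinoic acid and read retinoic acid out in the nucleus. They are 9 of the 52089 gene symbols in the deposited expression table, chosen by name: Rbp4, Stra6, Rdh10, Aldh1a1, Crabp1, Crabp2, Rara, Rarb and Rarg. Where a symbol had several transcript entries, the RefSeq mRNA with the highest mean RPKM (reads per kilobase of transcript, scaled to the mapped reads of the library) over the 24 libraries was taken. That choice used the levels, not the difference between groups, but the set was proposed with earlier results of the series known, so the tests below describe these genes and are not independent evidence.

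The cells were primary preadipocytes from the stromal-vascular fraction of the inguinal white fat of 129SvEv mice, a depot in which thermogenic, UCP1-bearing "brite" adipocytes can form. All 4 groups shared the induction of adipogenesis, the PPARgamma agonist rosiglitazone, used to drive browning, and reverse transfection with an LNA gapmer at 50 nM. The gapmer, an antisense oligonucleotide that recruits RNase H, was either directed at the long noncoding RNA Ctcflos (KD) or nontargeting (NC), and RNA was taken 24 h or 72 h later, with 6 libraries in each group, called NC 24 h, NC 72 h, KD 24 h and KD 72 h. The study used more than one gapmer against Ctcflos, and the labels do not give the one each KD library received, so a loss of Ctcflos and other actions of an oligonucleotide cannot be told apart. The study describes its samples as biological replicates, but the labels do not tie libraries to cultures or mice, and p-values measure the spread between these libraries.

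The libraries held between 1391823 and 5423839 mapped reads (median 3945867). NC 72 h replicates 2 and 3 differed by less than the counting noise and were counted as 1 sample, which leaves n = 5 in that group. With each group's mean taken off, the libraries were split into 2 clusters along the main axis of the remaining differences. That axis held 17.2% of the spread. The larger cluster took 16 libraries and the smaller 8, 2 from every group. A split in 2 was set beforehand, and taking off the means tends to place samples of every group on both sides. Deviations of samples from different groups correlated weakly, at a mean r of 0.08 within a cluster and -0.096 across. The labels do not name this split, and since it touches several of the genes below, values are also given within each cluster. Because the split was drawn from these same data, p-values within a cluster or with the cluster as a term can be too small. The target itself was low. Its RefSeq transcript ranged from 0.178 to 1.38 RPKM (median 0.73) in NC 24 h. In KD 24 h it ranged from 0 to 0.62 (median 0.0923) and was too low to test. At 72 h it ranged from 0.846 to 1.75 in NC and from 0 to 0.517 in KD. The log2 fold change there was -2.48 ± 0.48 (SE, limma, adjusted p = 0.00224). The study concentrated its global analysis on another transcript of Ctcflos, transcript 1. That transcript ranged from 0.171 to 0.848 RPKM (median 0.418) in NC 24 h. In KD 24 h it ranged from 0 to 1.03 (median 0.0874), so the highest KD library lay above every NC library. At 72 h it ranged from 0 to 2.48 (median 1.22) in NC and from 0 to 0.529 (median 0) in KD. Its values are given without a test. The cells expressed adipocyte markers strongly. The summed level of Adipoq, Fabp4, Plin1, Cidec and Pparg was 48511 to 52270 scaled RPKM in NC 24 h.

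Retinol circulates bound to the retinol-binding protein RBP4, which is made by liver and by fat cells. STRA6 is the membrane receptor that takes retinol from RBP4, retinol dehydrogenases such as RDH10 oxidise retinol to retinal, and retinal dehydrogenases such as ALDH1A1 oxidise retinal to retinoic acid. CRABP1 and CRABP2 hold retinoic acid in the cytosol, CRABP2 passing it to the nucleus, where the receptors RARalpha, RARbeta and RARgamma bind DNA as heterodimers with retinoid X receptors. In fat, retinoic acid is known for holding back early adipogenesis and for inducing Ucp1, and circulating RBP4 is known for its link to insulin resistance.

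One member carries a well-known retinoic acid response element in its promoter, and it is shown here because that gene is also a known target of the receptors, and its reads are given below. The element is a pair of half-sites in the same direction, 5 bases apart (DR5). Each half-site was searched as AGGTCA itself, as the variants AGTTCA and then GGGTCA, or as the fourth form GGTTCA, on both strands, from 250 bases before to 50 bases after each RefSeq start (GRCm38.p6), together with the 2-base (DR2) and 1-base (DR1) spacings. RefSeq promoters were matched for 7 of the 9 genes, 16 promoters in all. Rdh10 and Crabp2 had no entry. A DR5 was found in 1 of the 16, that of Rarb, and in 0.0974% of all 32851 promoters. No DR2 or DR1 was found in the 16, against 0.268% and 0.222% of all promoters. The DR5 of Rarb, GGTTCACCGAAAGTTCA, began 53 bases before the start. The forms searched include both half-sites of this known element, so finding it was no test. A match is a matter of letters only. The 250 bases before the start of Rarb, with the DR5 in capitals, lie at chr14:16575477-16575726 (minus strand). The 250 bases before each of the 2 starts of Rbp4, the member whose level changed, lie at chr19:38125322-38125571 and chr19:38124812-38125061 (minus strand), and hold none of these motifs.
Rarb: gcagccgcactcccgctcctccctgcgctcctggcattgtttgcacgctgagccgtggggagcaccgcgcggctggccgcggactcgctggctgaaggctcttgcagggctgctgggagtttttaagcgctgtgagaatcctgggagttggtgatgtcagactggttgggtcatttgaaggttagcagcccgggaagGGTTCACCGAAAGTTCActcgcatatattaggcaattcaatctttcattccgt
Rbp4 start 1: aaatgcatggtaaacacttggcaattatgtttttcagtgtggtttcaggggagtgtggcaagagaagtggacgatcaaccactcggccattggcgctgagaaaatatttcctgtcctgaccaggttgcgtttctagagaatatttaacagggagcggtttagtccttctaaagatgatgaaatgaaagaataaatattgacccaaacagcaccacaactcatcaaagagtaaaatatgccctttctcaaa
Rbp4 start 2: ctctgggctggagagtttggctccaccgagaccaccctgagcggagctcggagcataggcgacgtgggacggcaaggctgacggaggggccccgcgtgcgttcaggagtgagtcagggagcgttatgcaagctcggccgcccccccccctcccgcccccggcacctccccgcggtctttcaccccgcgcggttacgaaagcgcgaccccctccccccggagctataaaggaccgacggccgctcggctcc

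Most of these genes were weakly transcribed, and Rbp4 stood apart in level. By mean scaled RPKM with 1 entry per symbol, Rbp4 ranked 183 of 27604 symbols above 0 in NC 24 h and 163 of 26739 in NC 72 h, while Crabp1 ranked 4694 and 4175, Aldh1a1 4656 and 5775, Rdh10 9211 and 8637, and Rara 9534 and 8728. In reads over all 24 libraries, Rbp4 had 36969, Aldh1a1 1453, Rara 653, Crabp1 648, Rdh10 464, Rarb 133, Rarg 89, Crabp2 55 and Stra6 15. The libraries were made from tags near the 3′ end, so a value per kilobase understates a long transcript, and the order between genes is only as good as that scale. The filter, the equivalent of 10 reads of the median library in as many samples as the smaller group holds, was passed in all comparisons by 5 of the 9 genes, namely Rbp4, Rdh10, Aldh1a1, Crabp1 and Rara. Stra6, Crabp2, Rarb and Rarg were below it and are given as reads.

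The comparison of KD with NC asks how gene expression of the forming brite adipocyte differs once Ctcflos is targeted, early at 24 h and later at 72 h. Of the 5 genes tested, 1 passed the threshold at 24 h and 1 at 72 h, Rbp4 both times and lower in KD. In the same fits 22.3% of all entries passed at 24 h (11.8% lower) and 22.2% at 72 h (11.6% lower), so the number of members called is near the background. The median log2 fold change of the 5 was -0.13 at 24 h and 0.03 at 72 h, beside -0.02 and 0.00 over all genes tested with 1 entry per symbol. In NC cells between 24 h and 72 h, 0 of the 5 genes passed in limma, where 9.12% of entries did (4.33% higher and 4.79% lower, and 9.19% of genes with 1 entry per symbol), and 1, Aldh1a1, had an unadjusted p under 0.05.

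**Figure D1:**
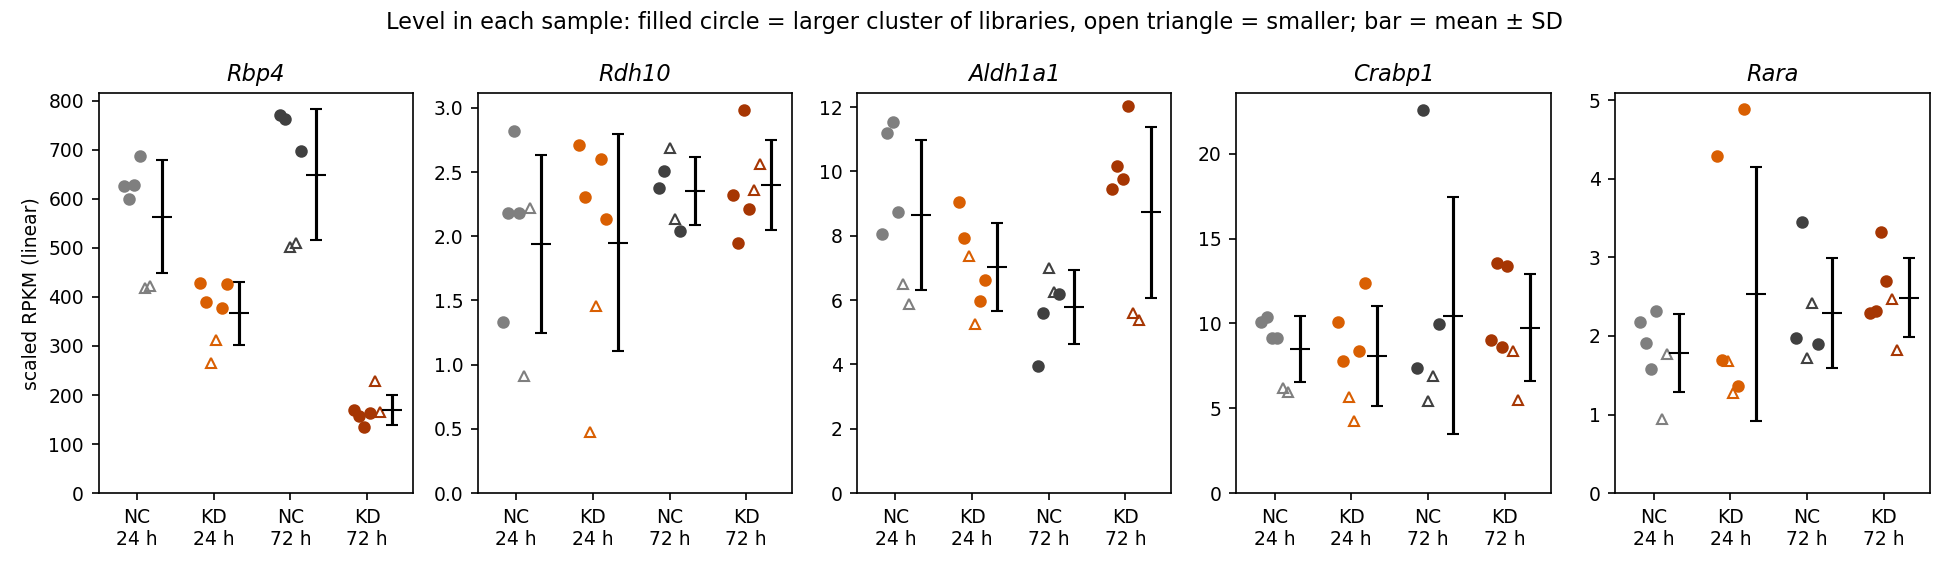
Scaled RPKM (linear axis from 0) of the 5 genes that passed the filter, in every sample of the 4 groups. Filled circles are samples of the larger cluster of libraries, open triangles those of the smaller cluster, and the bar is the mean ± SD (n = 6, and 5 in NC 72 h). The 6 KD 72 h samples of Rbp4 lie between 135 and 228, below the 502 to 771 of NC 72 h.

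Rbp4, the retinol carrier, was lower in KD at both times. On the scale of the fit over all 4 groups, its level in NC 24 h was lowest at 417, with a median of 612 and a highest value of 687 scaled RPKM, and in KD 24 h it was 266, 383 and 427. The groups touched: 4 of 6 KD samples lay below the lowest NC sample. At 72 h the lowest, median and highest values were 502, 698 and 771 in NC and 135, 165 and 228 in KD. No KD 72 h sample came near an NC 72 h sample, though the share of all genes without overlap is not given. The log2 fold change of KD over NC was -0.62 ± 0.16 (SE) at 24 h, a ratio of 0.649 with a 95% interval of 0.514 to 0.818 (limma, adjusted p = 0.0122), and -1.93 ± 0.15 at 72 h, a ratio of 0.263 with an interval of 0.21 to 0.328 (limma, adjusted p = 3.17e-06). Without replicate 2, 3 or 4 the adjusted p at 24 h was 0.0517, 0.0527 or 0.052, with log2 fold changes of -0.61, -0.48 and -0.50. The call at 72 h held without each replicate number in turn.

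The fall of Rbp4 was larger at 72 h than at 24 h when the difference was tested. It came to -1.31 ± 0.23 on the log2 scale (limma interaction, adjusted p = 0.0126), in a fit where 0.183% of entries were called (0.0661% lower). Of the 5 members tested there, Rbp4 was the 1 called. The call did not hold without replicate 1, 2 or 6 (adjusted p = 0.139, 0.0958 and 0.0609), where the difference was -1.23, -1.30 and -1.14. It was also lost with the replicate number as a block. At 24 h, 14.7% of 11123 genes had a log2 fold change as low as that of Rbp4 or lower, and at 72 h 0.547% of 11522, or 63 genes. The other 3 entries of Rbp4 in the table gave log2 fold changes of -0.62 to -0.63 at 24 h and -1.93 at 72 h, but they share reads with the entry used.

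Within each group at 24 h, Rbp4 was higher in the larger cluster. At 24 h, NC samples of the larger cluster held 599 to 687 scaled RPKM and KD samples 377 to 427, and in the smaller cluster NC held 417 to 421 and KD 266 to 312. KD and NC of the same cluster did not overlap at 24 h, though the smaller holds only 2 samples of each. The KD samples that reached into the NC range were of the larger cluster, and the NC samples they reached were of the smaller. The clusters were drawn from these same data, so p-values within them can be too small, and the share of all genes without overlap is not given. On the log2 scale KD over NC at 24 h came to -0.66 ± 0.10 among samples of the larger cluster (limma, adjusted p = 0.00219) and to -0.56 ± 0.09 among those of the smaller (0.0211), where 24.7% and 2.91% of entries were called. At 72 h the values were -2.26 ± 0.09 (adjusted p = 2.23e-07) and -1.37 ± 0.15 (0.000755), where 24.6% and 10.2% were called, and in the interaction -1.61 ± 0.14 (3.04e-05) and -0.82 ± 0.19 (0.0452), where 1.25% and 3.16% were called. In the smaller cluster at 72 h the 2 KD samples held 166 and 228 and the 2 NC samples 502 and 510. Whether the 72 h effect differs between clusters was not tested.

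In NC cells, the change of Rbp4 between 24 h and 72 h did not pass. It was 0.20 ± 0.16 on the log2 scale (limma, adjusted p = 0.512, 95% interval -0.14 to 0.54). With the cluster as a term the value was 0.24 ± 0.05 and passed the threshold (limma, adjusted p = 0.00515, where 13.6% of entries were called). It was 0.23 ± 0.07 (0.049) in the larger cluster alone and 0.26 ± 0.09 (0.153) in the smaller, where 10.2% and 3.35% were called. As the clusters were drawn from these same libraries, these p-values can be too small and do not establish a rise in NC. Over the same time the KD mean went from 366 ± 64.9 to 170 ± 31.2 scaled RPKM (SD, n = 6 each) and the NC mean from 563 ± 115 (n = 6) to 649 ± 133 (n = 5), values of different cells that were not tested for KD alone.

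In bulk RNA, fewer fat cells and less RNA per fat cell cannot be told apart. Some adipocyte markers and the 5 brite markers were lower in KD as well. Of 5 adipocyte markers, 1 was lower at 24 h (Adipoq, the adipokine adiponectin, -0.56 ± 0.17, limma, adjusted p = 0.0245) and 2 at 72 h (Adipoq -0.95 ± 0.16, adjusted p = 0.000814, and Fabp4 -0.57 ± 0.13, adjusted p = 0.00767), and their summed level was 36594 to 49348 scaled RPKM in KD 24 h, 35351 to 47063 in NC 72 h and 25393 to 34722 in KD 72 h. That sum is mostly Fabp4, whose mean in NC 24 h was 45115 of 49979. The other 3 adipocyte markers did not pass at either time, with -0.18 at 24 h and -0.44 at 72 h for Plin1 (adjusted p = 0.358 and 0.127), -0.22 and 0.12 for Cidec (0.454 and 0.516) and -0.46 and -0.17 for Pparg (0.0519 and 0.215). Of 5 brite markers, 5 were lower at 24 h and 5 at 72 h, and their summed level was 455 to 877 in NC 24 h, 328 to 480 in KD 24 h, 1267 to 2093 in NC 72 h and 381 to 730 in KD 72 h. None of these 2 lists held a marker at 0. Of 6 stromal markers, 0 were called at 24 h and 2 of the 5 tested were higher at 72 h (Pdgfrb 0.61 ± 0.14, limma, adjusted p = 0.00787, and Cd34 2.03 ± 0.37, adjusted p = 0.00144). Their summed level overlapped between groups, at 441 to 1038 in NC 24 h, 410 to 823 in KD 24 h, 393 to 1029 in NC 72 h and 694 to 875 in KD 72 h. Of 5 mesothelial markers, 1 was tested at 24 h and 2 at 72 h. Krt19 was higher in KD (1.04 ± 0.25 at 24 h, limma, adjusted p = 0.0101, and 2.55 ± 0.16 at 72 h, adjusted p = 5.55e-07), Upk3b was at 0 in every library, and the sum went from 19.3 to 26.6 in NC 24 h and 20.2 to 40.5 in NC 72 h to 25.3 to 77.7 in KD 24 h and 97.2 to 165 in KD 72 h. That sum is nearly all Krt19, whose mean in KD 72 h was 137 of 139, and Wt1, another mesothelial marker, had a mean of 5.82 in NC 72 h and 1.36 in KD 72 h, a difference of -1.49 ± 0.58 that did not pass (adjusted p = 0.0796). Of 5 macrophage markers, 3 were tested at each time. Csf1r was higher in KD (1.21 ± 0.27 and 1.25 ± 0.25, limma, adjusted p = 0.00681 and 0.0028) and Lyz2 lower at 72 h (-3.67 ± 0.59, adjusted p = 0.000678), with sums of 6.27 to 29.5 in NC 24 h, 2.68 to 21 in KD 24 h, 9.88 to 31.6 in NC 72 h and 5.96 to 13.7 in KD 72 h. The 4 endothelial markers summed to at most 1.59 and the 3 leukocyte markers to at most 0.342 in any sample, with Cd3e and Cd79a at 0. Of 3 smooth muscle markers, 1 was tested in KD against NC at each time. That was Acta2, which did not pass (-0.93 ± 0.41 at 24 h and -0.70 ± 0.26 at 72 h, limma, adjusted p = 0.113 and 0.0685). The 3 smooth muscle markers summed to 359 to 1114, 127 to 653, 235 to 760 and 181 to 253 in NC 24 h, KD 24 h, NC 72 h and KD 72 h. Their part in the difference of Rbp4 was not tested.

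**Figure D2:**
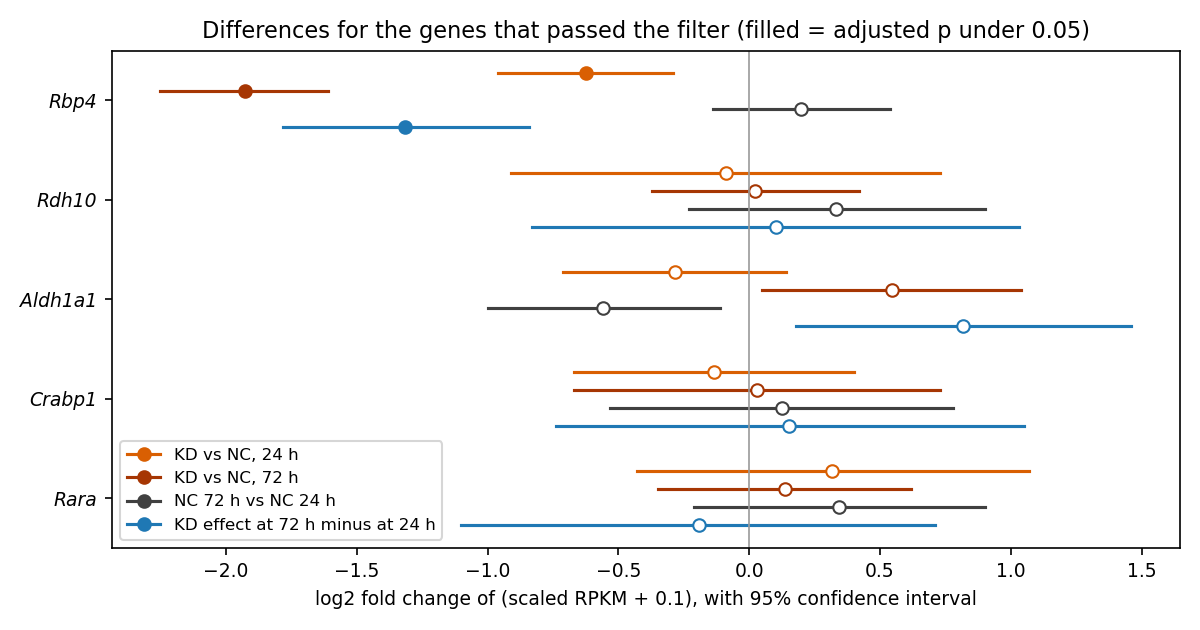
Log2 fold change of scaled RPKM + 0.1 with its 95% interval (horizontal axis) for the 5 genes that passed the filter, in KD against NC at 24 h and 72 h, NC 72 h against NC 24 h, and the difference between the 2 knockdown effects. Filled points have an adjusted p under 0.05: the 3 knockdown values of Rbp4, at -0.62, -1.93 and -1.31.

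Stra6, the RBP4 receptor, was close to absent, and its few reads lay in KD libraries. It had 0 reads in each of the 12 NC libraries. In KD 24 h 4 of 6 libraries held 1 read each, and in KD 72 h 4 of 6 libraries held reads, 11 in all and at most 5 in a library. A count of 0 in the NC 72 h group allows up to 3 reads of 18218311, or 0.165 RPM (reads scaled to mapped reads, without transcript length, with the averaged pair of NC 72 h counted once). The 11 reads of KD 72 h are 0.487 on the same scale, or 2.96-fold that floor taken over the group. The floor covers counting error in NC only. The KD count is taken as exact, and the spread between libraries is not covered. In the unfiltered fit the log2 fold changes were 0.56 ± 0.24 at 24 h and 1.13 ± 0.45 at 72 h and did not pass (limma, adjusted p = 0.189 and 0.168). In the GENCODE M21 annotation (GRCm38), Stra6 spans 90.2 kb at chr9:58063788-58153996 on the plus strand and overlaps Ccdc33 on the minus and Gm16131 on the plus strand. This overlap is of whole gene spans, introns included, and was not checked for the counted transcripts. The strand setting of the counting is not given in the sources used here, so whether reads of these genes were mixed is not known. The same holds for Aldh1a1 with C730002L08Rik and Gm6684 on the other strand, and for Rara with Gm22061 on its own strand.

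Rdh10, the retinol dehydrogenase that starts retinoic acid synthesis in many tissues, showed no difference beyond its spread. Its lowest, median and highest levels were 0.913, 2.18 and 2.82 scaled RPKM in NC 24 h, 0.479, 2.22 and 2.71 in KD 24 h, 2.04, 2.38 and 2.69 in NC 72 h, and 1.95, 2.34 and 2.99 in KD 72 h. The groups overlapped at both times. KD over NC was -0.09 on the log2 scale (95% interval -0.91 to 0.73) at 24 h and 0.02 (-0.37 to 0.42) at 72 h, and 0.33 (-0.23 to 0.90) in NC over time (limma, adjusted p = 0.889, 0.945 and 0.509). The 72 h interval leaves room for a ratio between 0.774 and 1.34, while the 24 h interval is wider, 0.532 to 1.66, at 5 to 28 reads per library.

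Aldh1a1, the retinal dehydrogenase, did not pass over all samples, and its values went different ways in the 2 clusters. Its lowest, median and highest levels were 5.88, 8.4 and 11.5 scaled RPKM in NC 24 h, 5.25, 6.99 and 9.06 in KD 24 h, 3.94, 6.2 and 6.99 in NC 72 h, and 5.4, 9.61 and 12 in KD 72 h. At 72 h 4 of 6 KD samples lay above the highest NC sample, and the other 2 were the KD samples of the smaller cluster. The log2 fold change was -0.28 ± 0.20 at 24 h (limma, adjusted p = 0.321) and 0.55 ± 0.23 at 72 h (adjusted p = 0.107), and -0.56 ± 0.21 in NC over time (adjusted p = 0.116, 95% interval -1 to -0.11). In the larger cluster it passed at 72 h with 0.99 ± 0.20 (adjusted p = 0.00503), in NC over time with -0.91 ± 0.22 (0.0235) and in the difference between the knockdown effects with 1.40 ± 0.29 (0.0244), where 24.6%, 10.2% and 1.25% of entries were called. In the smaller cluster the same values were -0.26 ± 0.26, 0.08 ± 0.25 and -0.26 ± 0.36 and did not pass (adjusted p = 0.588, 0.905 and 0.766). The clusters were drawn from these same data, so p-values within a cluster can be too small and these calls are a description only. The difference between clusters was not tested. On the deposited scale, where the median of all entries at 72 h lies at 0.25 and not at 0.02, Aldh1a1 was 0.78 higher in KD 72 h (adjusted p = 0.0132, where 30% of entries were called).

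The level of Aldh1a1 has to be read beside Aldh1a7, a close paralogue 49.5 kb away on chromosome 19, named here after its values were seen. Aldh1a7 stood at 343 to 425 deposited RPKM in NC 24 h, 403 to 466 in KD 24 h, 264 to 289 in NC 72 h and 247 to 378 in KD 72 h. Aldh1a1 came to between 1.06 and 4.71% of that in single libraries, with group medians of 1.99% in NC 24 h, 1.59% in KD 24 h, 2.01% in NC 72 h and 3.78% in KD 72 h. How reads that match both genes were placed is not given in the sources used here, so the reads of Aldh1a1 are uncertain. Aldh1a7 itself fell in NC between 24 h and 72 h by 0.46 ± 0.07 on the log2 scale (limma, adjusted p = 0.000501) and was 0.10 ± 0.10 and -0.15 ± 0.10 in KD against NC at 24 h and 72 h (adjusted p = 0.517 and 0.294).

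**Figure D3:**
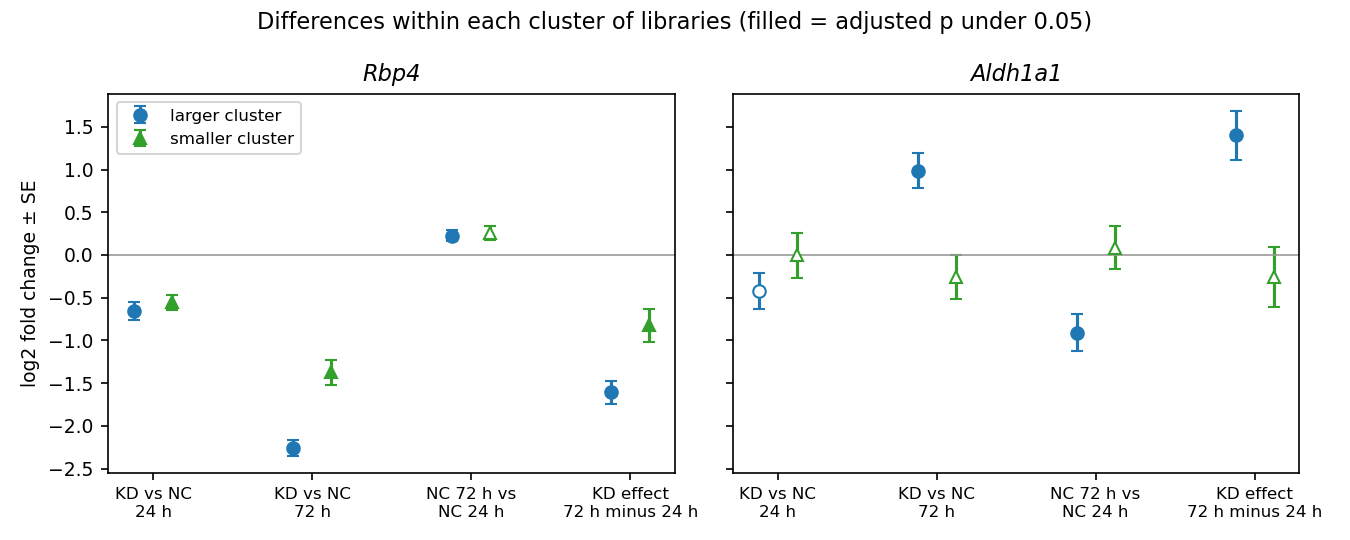
Log2 fold change ± SE (vertical axis) of Rbp4 and Aldh1a1 fitted separately in the larger cluster of libraries (circles) and in the smaller (triangles), for the comparisons on the horizontal axis. Filled symbols have an adjusted p under 0.05, which can be too small because the clusters were drawn from these same data. Rbp4 lies below 0 in both clusters in the 3 knockdown comparisons, while Aldh1a1 at 72 h is 0.99 in the larger cluster and -0.26 in the smaller.

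Crabp1, a cytosolic holder of retinoic acid, showed no difference past the threshold. Its lowest, median and highest levels were 5.97, 9.14 and 10.4 scaled RPKM in NC 24 h, 4.24, 8.07 and 12.4 in KD 24 h, 5.43, 7.37 and 22.6 in NC 72 h, and 5.48, 8.83 and 13.6 in KD 72 h. The highest value, 22.6, belonged to the sample that joins NC 72 h replicates 2 and 3. KD over NC came to -0.13 on the log2 scale (95% interval -0.67 to 0.40) at 24 h, 0.03 (-0.67 to 0.73) at 72 h and 0.12 (-0.53 to 0.78) in NC over time (limma, adjusted p = 0.73, 0.958 and 0.859). In all 4 groups the samples of the smaller cluster averaged less than those of the larger, at 6.09 against 9.7 in NC 24 h, 4.94 against 9.65 in KD 24 h, 6.17 against 13.3 in NC 72 h and 6.92 against 11.2 in KD 72 h. Crabp2, which delivers retinoic acid to the receptors, had 8 reads in NC 24 h, 5 in KD 24 h, 25 in NC 72 h and 17 in KD 72 h. It was found in 3, 2, 6 and 5 of the 6 libraries. In the unfiltered fit the rise in NC over time was 2.14 ± 0.74 on the log2 scale and did not pass (limma, adjusted p = 0.18).

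Of the receptors, Rara was the most abundant per length and did not differ beyond its spread. Its lowest, median and highest levels were 0.937, 1.84 and 2.32 scaled RPKM in NC 24 h, 1.27, 1.69 and 4.89 in KD 24 h, 1.71, 1.98 and 3.44 in NC 72 h, and 1.82, 2.4 and 3.32 in KD 72 h. In KD 24 h 2 samples lay above the highest NC 24 h sample, and otherwise the groups overlapped. On the log2 scale KD over NC was 0.32 (95% interval -0.43 to 1.07) at 24 h, 0.14 (-0.35 to 0.62) at 72 h and 0.34 (-0.21 to 0.90) in NC over time (limma, adjusted p = 0.539, 0.712 and 0.481). The other tested entries of Rara gave 0.29 to 0.34 at 24 h and 0.13 to 0.20 at 72 h, none of them called.

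Rarb, the receptor gene with the DR5 shown above and itself a classic target of retinoic acid, had fewer reads in KD at both times, without passing a test. It had 37 reads in NC 24 h (0 to 12 per library) and 10 in KD 24 h (0 to 3), and 59 in NC 72 h (5 to 15) and 27 in KD 72 h (0 to 7). At 72 h 4 of 6 KD samples lay below the lowest NC sample, and at 24 h 2 of 6 NC samples lay within the KD range. In the order NC 24 h, KD 24 h, NC 72 h and KD 72 h these are 1.43, 0.408, 2.5 and 1.2 RPM, where the averaged pair of NC 72 h counts once, while read totals of NC 72 h are over all 6 libraries. In the unfiltered fit the log2 fold changes were -1.07 ± 0.59 at 24 h and -1.31 ± 0.57 at 72 h (limma, adjusted p = 0.341 and 0.208), and 1.03 ± 0.60 in NC over time (0.523). Rarb spans 388.3 kb, the longest locus of the 9, and overlaps Top2b and Gm48162 on the other strand in GENCODE M21. Rarg had 17 reads in NC 24 h, 18 in KD 24 h, 29 in NC 72 h and 25 in KD 72 h, with unfiltered log2 fold changes of -0.06 ± 0.59 and -0.84 ± 0.58 for KD (adjusted p = 0.966 and 0.472). The 95% intervals at 72 h, not adjusted over genes, ran from -2.53 to -0.09 for Rarb and from -2.09 to 0.40 for Rarg.

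**Figure D4:**
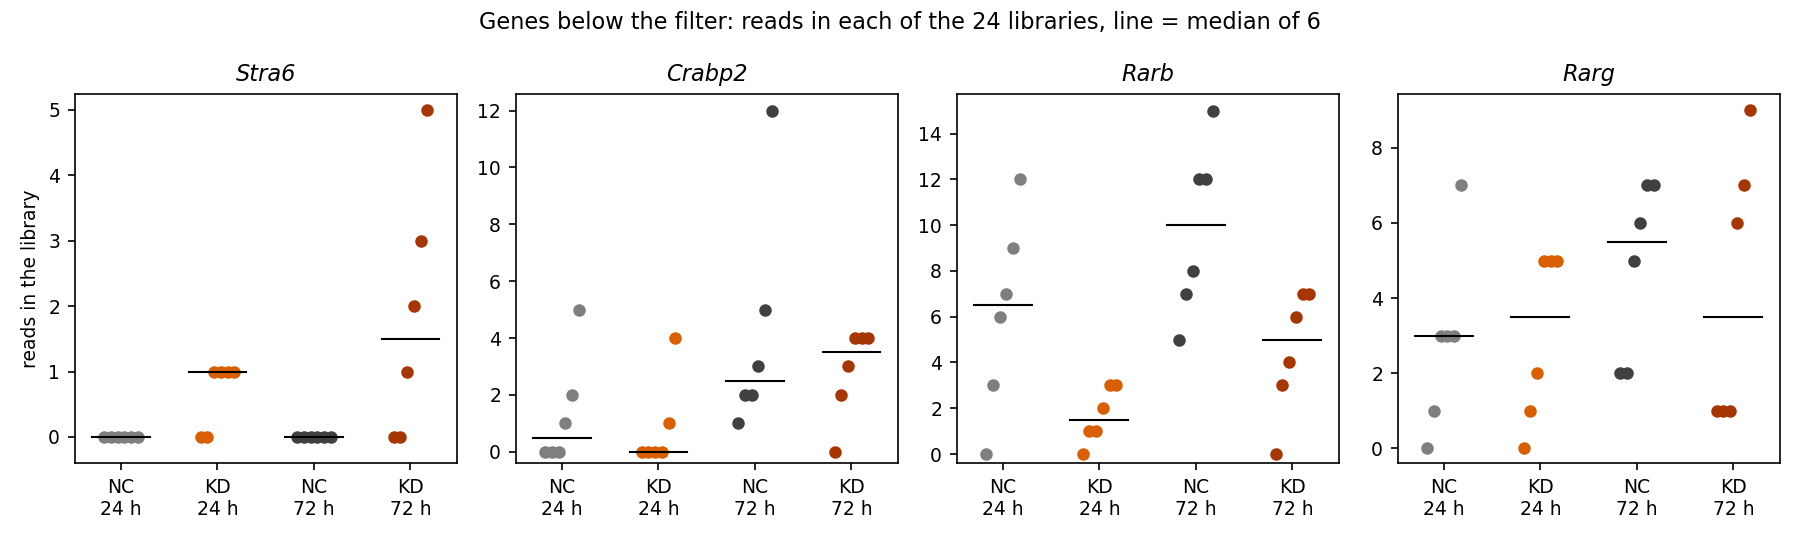
Reads (vertical axis, linear, not scaled for depth) of the 4 genes below the filter in each of the 24 libraries, by group, with the median of 6 as a line. Stra6 is at 0 in all 12 NC libraries, and Rarb has medians of 6.5 and 10 reads in NC against 1.5 and 5 in KD.

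The other genes of the pathway were read from a list of 47 that served as context, of which 46 had an entry in the table. The list was chosen with earlier results of these data known, so its counts and medians are a description and not independent evidence. At 24 h 29 passed the filter and 12 were called, 11 of them lower in KD, and the median of the 29 log2 values was -0.34. At 72 h 30 passed and 6 were called, 5 of them lower, with a median of -0.18. In the same fits 22.4% and 23.1% of all genes with 1 entry per symbol were called, with medians of -0.02 and 0.00. In the test of the difference between the 2 effects, limma called 0 of 31 of the list, where 0.246% of genes were called and 1 of the 5 members.

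Among carriers and genes of retinyl ester storage, 5 of 9 were tested. Dgat1, which esterifies retinol and diacylglycerol, was lower in KD by 0.62 ± 0.12 and 0.56 ± 0.13 at 24 h and 72 h (limma, adjusted p = 0.0035 and 0.0069). The lipase Lipe was lower at 24 h (-0.43 ± 0.13, adjusted p = 0.0314) and did not pass at 72 h (-0.40 ± 0.21, adjusted p = 0.19). Lpl, another lipase, was lower at 72 h (-0.47 ± 0.13, adjusted p = 0.0206) and did not pass at 24 h (-0.32 ± 0.13, adjusted p = 0.0824). The esterifying enzyme Lrat was at 0 in every sample of 3 groups and at most 0.202 in NC 72 h, and Rbp2 and Ttr were at 0.

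Of the 17 other retinol and retinal enzymes, 9 were tested at 24 h and 10 at 72 h. At 24 h Dhrs4 and Adh1 were lower in KD (-0.51 ± 0.14 and -0.61 ± 0.16, limma, adjusted p = 0.0158 and 0.0165), and at 72 h Rdh11 was higher (0.92 ± 0.27, adjusted p = 0.0257). Dhrs3, which returns retinal to retinol and is induced by retinoic acid, stood at 184 to 249 scaled RPKM in NC 24 h, far above Rdh10 per length. In KD 24 h it stood at 27.8 to 202, a log2 fold change of -0.87 ± 0.37 that did not pass (limma, adjusted p = 0.105). The lowest value was that of KD 24 h replicate 6, the library with the fewest reads. The medians were 230 in NC and 168 in KD, so that 1 sample weighs heavily on the fold change. Aldh1a2, the other retinal dehydrogenase of the stroma, stood at 0 to 0.681 in NC 24 h and 1.05 to 2.7 in NC 72 h, with 0 to 0.647 and 0.835 to 3.14 in KD. Aldh1a3 stayed at or under 0.328 in every sample. Of the genes that break down or deliver retinoic acid, the fatty acid and retinoic acid carrier Fabp5 was lower in KD at both times (-0.46 ± 0.11 and -0.63 ± 0.17, limma, adjusted p = 0.00865 and 0.0139). Cyp26a1 was at 0 in every sample of the other groups and close to absent in KD 72 h, with a median of 0, a mean of 0.0679 and a highest value of 0.407. Cyp26c1 was at 0.

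Several partners of the receptors were lower in KD. All 9 partners and coregulators passed the filter, and 5 were lower in KD at 24 h, with a median of -0.58, and 1 at 72 h, with a median of -0.39. Rxra, the retinoid X receptor that pairs with RARs and with PPARgamma, stood at 2.28 to 3.69 scaled RPKM in NC 24 h and 0.729 to 1.69 in KD 24 h, and at 2.28 to 2.97 in NC 72 h and 0.538 to 1.74 in KD 72 h. The groups did not overlap at either time, but the share of all genes without overlap is not given. Its log2 fold change was -1.10 ± 0.24 at 24 h and -1.34 ± 0.27 at 72 h (limma, adjusted p = 0.0056 and 0.00336), where Rara was 0.32 and 0.14 and not called. Rxrg was lower at 24 h (-0.58 ± 0.15, adjusted p = 0.0149) and fell in NC over time by 1.35 ± 0.15 (adjusted p = 0.000113). The corepressor Ncor1 and the coactivator Ncoa1 were lower at 24 h (-0.70 ± 0.22 and -1.05 ± 0.20, adjusted p = 0.0342 and 0.00275). At 72 h their values were -0.64 and -0.39 (adjusted p = 0.0511 and 0.0841), and the difference between times did not pass (interaction, adjusted p = 0.973 and 0.298).

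Of 12 genes known to respond to retinoic acid, 3 of them members, 5 were tested at each time and 1 was called, Ucp1, with a median of -0.19 at 24 h and -0.22 at 72 h. Ucp1, the uncoupling protein that carries thermogenesis, also responds to many other signals. It was lower in KD by 1.17 ± 0.25 at 24 h and 2.35 ± 0.21 at 72 h on the log2 scale (limma, adjusted p = 0.00488 and 8.85e-06). In NC it rose over time, by 2.48 ± 0.24 (adjusted p = 3.79e-05). Rarres2, which encodes chemerin, rose in NC over time by 1.38 ± 0.30 (adjusted p = 0.00927), and Tgm2 was 0.05 ± 0.23 and 0.75 ± 0.38 in KD (adjusted p = 0.888 and 0.174).

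**Figure D5:**
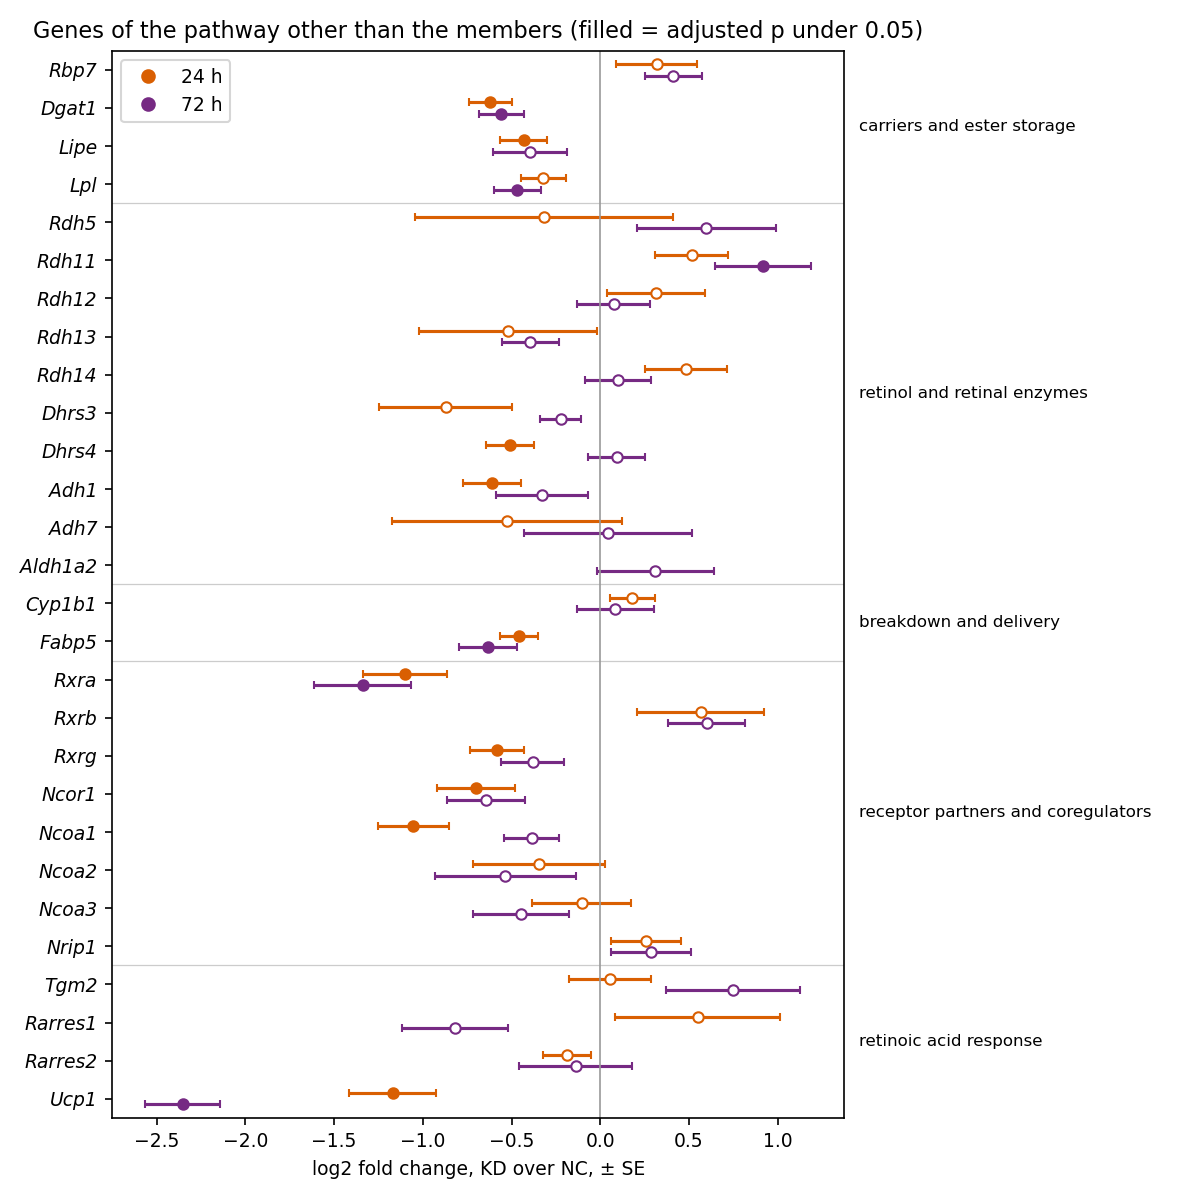
Log2 fold change of KD over NC ± SE (horizontal axis) at 24 h and 72 h for most of the other genes of the pathway that passed the filter, grouped by role. Filled points have an adjusted p under 0.05. Rxra lies at -1.10 and -1.34, and Ucp1 at -1.17 and -2.35.

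Across samples the members did not share 1 pattern. Over 23 samples, which include the group differences, the highest of the 10 Pearson correlations among the 5 tested members was 0.63 between Crabp1 and Rara, and Rbp4 lay between -0.27 and 0.12 with the other 4. The genes most like Rbp4 among 12605 were Etfa (r = 0.94), a subunit of the mitochondrial electron transfer flavoprotein, Ffar4 (r = 0.94), a receptor for long-chain fatty acids, and the entry ENSMUST00000117793 (r = 0.93). Ffar4 is the neighbour of Rbp4: in GENCODE M21 (GRCm38) Rbp4 lies at chr19:38116629-38125281 on the minus strand and Ffar4 ends 2.4 kb away on the plus strand, so that the genes point at each other. Ffar4 stood at 8.15 to 20.5 deposited RPKM in NC 24 h, 5.37 to 12.8 in KD 24 h, 11.1 to 22.6 in NC 72 h and 4.42 to 7.09 in KD 72 h. Its log2 fold change was -0.89 ± 0.24 at 24 h and -1.71 ± 0.19 at 72 h (limma, adjusted p = 0.0159 and 4.14e-05), beside -0.62 and -1.93 for Rbp4. Etfa, on chromosome 9, was -0.33 ± 0.11 and -0.90 ± 0.09 (adjusted p = 0.046 and 2.89e-05). For Rdh10 the most similar gene was Dixdc1 (r = 0.90), for Aldh1a1 Rasgef1b (0.77), for Crabp1 Stc1 and Unc13a (both 0.76), and for Rara Kank2 (0.80). These correlations share groups, clusters and libraries and are a description only.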

How the data were processed

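BRB-seq libraries (barcoded oligo-dT priming, Tn5 tagmentation, Illumina NextSeq) were made from total RNA in 24 samples. The authors mapped and counted reads with the Genomatix software and deposited values as RPKM per transcript entry, written with decimal commas. The authors compared groups with DESeq2 at each time point. The genome build, versions and strand setting for these libraries are not given in the sources used here.

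From the deposited RPKM, reads per entry were recovered from the step size of low values (tolerance 0.02 reads). Values were rescaled between libraries by a trimmed mean of log ratios (30% of ratios and 5% of levels trimmed), log2-transformed with a pseudocount of 0.1 and tested with limma 3.58.1 in R 4.3.3, Benjamini-Hochberg adjusted over all entries, with calls at an adjusted p under 0.05. An entry was tested if its RPKM, at the median depth, would equal at least 10 reads in enough samples. The scaled RPKM of a group comes from the scaling over all 4 groups. The scripts were tested on simulated data. Python 3.11.15 drew the figures. The members and lists were chosen with earlier results of these data known. Genes are named if they are members, called genes or described genes of the fixed lists, or the 3 genes most correlated with a member. Alternatives were the deposited scale, another scaling, pseudocounts of 1 and 0.01, no filter, 1 entry per symbol, the next entry of a symbol, a replicate block, NC 72 h replicates 2 and 3 kept apart, each cluster alone, the cluster as a term and each replicate left out. Leaving out KD 24 h replicate 6 or NC 72 h replicate 6 was added after seeing the data. KD 24 h replicate 6 held the fewest reads, 1391823. In NC 72 h replicate 6, 76.4% of low values came to whole reads, against at least 93.5% in the other libraries. Half-read steps made up 20.85% there, against at most 0.29% elsewhere, so its recovered reads are less certain. Values of 2 genes on the pathway lists are not reported here, though the counts and medians of the lists include them.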

Additional observations from a re-analysis of the deposited data

Results flagged for a closer look

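The difference between the knockdown effects of Rbp4 at 72 h and 24 h passed its own test, at -1.31 on the log2 scale, and lost the call without replicate 1, 2 or 6 (limma, adjusted p = 0.139, 0.0958 and 0.0609). The call was also lost with the replicate number as a block. Of 34 groups of samples checked over the 9 genes, 3 held a sample far from the others, where chance gives about 1 in 20. Rbp4 was highest in KD 72 h replicate 5, at 228 scaled RPKM. Crabp1 was highest in the sample joining NC 72 h replicates 2 and 3, at 22.6 scaled RPKM. Crabp2 was highest in KD 24 h replicate 2, at 1.07 scaled RPKM.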

How the results depend on the processing

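Of 376 values of the tested members under the alternatives, 335 kept their direction and their side of the threshold, 7 lost a call, 6 gained one and 28 changed sign. The causes were not tested, except that 1 entry per symbol tests fewer entries and a single cluster holds fewer samples. On the deposited scale the share of calls at 72 h that were higher in KD was 80.9%, against 47.8%, and in the interaction 96.1% against 63.9%. Genes of a few reads are limited by depth.

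Entries called at 24 h numbered 11583, against 2579 with 1 entry per symbol and 1542 in the smaller cluster. At 72 h the 12032 became 2781 and 5731, and over time in NC the 4797 became 1063 and 1782, with 2907 under the replicate block. The interaction called 108, against 773 on the deposited scale, 243 with a pseudocount of 1, 48 with 1 entry per symbol, 28 under the block, 184 with NC 72 h replicates 2 and 3 kept apart, 749 and 1860 in the larger and smaller cluster, 277 with the cluster as a term and 164 without KD 24 h replicate 6. Members called at 72 h rose from 1 to 2 on the deposited scale and in the larger cluster, over time from 0 to 2 in the larger cluster and 1 with the cluster as a term, and in the interaction from 1 to 2 in the larger cluster and 0 under the block. Same-numbered samples did not deviate together (mean r = -0.07 for KD and NC at 24 h, 0.02 at 72 h and 0 for NC over time), so the numbers pair nothing. Under the replicate block Rbp4 was -0.62 at 24 h (limma, adjusted p = 0.0387), -1.86 at 72 h (0.000634) and -1.28 in the interaction (0.0533).

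Signs changed for Rdh10 at 24 h in the larger cluster (0.22), at 72 h under the block (-0.04) and without NC 72 h replicate 6 (-0.02), and in the interaction in the larger cluster (-0.20). They changed for Aldh1a1 in the smaller cluster at 72 h (-0.26), over time (0.084) and in the interaction (-0.26), and for Rara in the interaction without KD 24 h replicate 6 (0.045). For Crabp1 they changed at 72 h with NC 72 h replicates kept apart (-0.17), in the larger cluster (-0.12) and with the cluster as a term (-0.022), over time in the smaller cluster (-0.004), and in the interaction with replicates kept apart (-0.051) and in the larger cluster (-0.086).

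Leaving out each replicate number gave 6013 to 11650, 7674 to 10569, 3173 to 3933 and 5 to 120 entries called at 24 h, at 72 h, over time and in the interaction, with 13240 at 24 h without KD 24 h replicate 6 alone and 4115 over time without NC 72 h replicate 6 alone, and 0 to 1, 1 to 1, 0 to 0 and 0 to 1 members. Rdh10 ranged from -0.37 to 0.38 at 24 h, -0.044 to 0.085 at 72 h and -0.41 to 0.39 in the interaction. Crabp1 ranged from -0.37 to 0.076 at 24 h, -0.26 to 0.22 at 72 h, -0.003 to 0.33 over time and -0.32 to 0.58 in the interaction. Rara in the interaction ranged from -0.53 to 0.063.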
